A study of Mus musculus with 35 samples.

Results

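Huntington's disease is caused by an expanded CAG repeat in the huntingtin gene (Htt), and the striatum, above all its medium-spiny neurons (MSNs), is the brain region most affected. The 8 genes described here, Ndst3, Lrrtm4, Olfm3, Ildr2, B3gnt2, Trpv2, Myadm and Vrk1, were selected on their measured values: their striatal mRNA differed between HttQ111/+ and Htt+/+ mice whose Hdac2 was intact, and they were put together as genes that Hdac2 loss left alone in HttQ111/+ mice. They are 8 of the 39017 gene entries of the count table, and all 8 passed the filter on low counts in every comparison. The choice rested on measured values, so that the difference made by HttQ111 with intact Hdac2, and the lack of a difference made by Hdac2 loss in carriers, are given below as descriptions, with no test. What was left to ask is where the levels of these genes lay in the other genotype groups, and whether Hdac2 loss altered them in mice without the HttQ111 allele.

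RNA-seq was performed on the striatum of 35 mice aged 21.7 to 23 weeks, in 4 groups. The first 2 groups had intact Hdac2 and no Cre: 8 Htt+/+ Hdac2 WT mice (Hdac2+/+ in the labels; 3 female, 5 male) and 7 HttQ111/+ Hdac2 WT mice (3 female, 4 male; CAG 110 to 140). The other 2 groups were homozygous for a floxed Hdac2 allele and carried the D9-Cre transgene (Hdac2D/D or Hdac2-/- in the labels): 9 Htt+/+ Hdac2 KO mice (4 female, 5 male) and 11 HttQ111/+ Hdac2 KO mice (3 female, 8 male; CAG 110 to 144). HttQ111 is a knock-in allele that places an expanded CAG repeat in the mouse gene, and Htt+/+ mice carry a repeat of 7 CAG units. D9-Cre is driven by a fragment of Ppp1r1b, the gene of DARPP-32, and acts in MSNs of the young adult, so that the other cells of the striatum keep Hdac2. No Hdac2 WT mouse carried Cre, and effects of the transgene and of the deletion cannot be told apart. The floxed line had a C57BL/6/129SeEv origin and was kept on C57BL/6J. Mouse IDs begin with A, V or Z, and the HttQ111/+ mice of the V series had longer repeats (131 to 144, 8 mice) than those of the A and Z series (110 to 118, 10 mice).

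HDAC2 is an enzyme that removes acetyl groups from histones and is a component of several repressive complexes in neurons. The 8 genes belong to no single pathway. Ndst3 encodes an N-deacetylase/N-sulfotransferase that modifies growing heparan sulfate chains, Lrrtm4 a postsynaptic leucine-rich-repeat protein that binds heparan sulfate proteoglycans, and Olfm3 a secreted olfactomedin-domain glycoprotein found with AMPA receptors. B3gnt2 encodes the glycosyltransferase that extends poly-N-acetyllactosamine chains. Ildr2, Trpv2 and Myadm encode membrane proteins, respectively an immunoglobulin-domain receptor, a cation channel and a myelin-and-lymphocyte-domain protein, and Vrk1 encodes a nuclear serine/threonine kinase.

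All 8 are protein-coding genes, on GRCm38. Ndst3 (ENSMUSG00000027977, chr3:123526166-123690817, minus strand) and Olfm3 (ENSMUSG00000027965, chr3:114904078-115125256, plus strand) lie on the same chromosome. B3gnt2 (ENSMUSG00000051650, chr11:22834747-22860961, minus strand) and Trpv2 (ENSMUSG00000018507, chr11:62574486-62600299, plus strand) share another. The remaining genes are Ildr2 (ENSMUSG00000040612, chr1:166254139-166316823, plus strand), Lrrtm4 (ENSMUSG00000052581, chr6:80018877-80810141, plus strand), Myadm (ENSMUSG00000068566, chr7:3289038-3299345, plus strand) and Vrk1 (ENSMUSG00000021115, chr12:106010263-106077410, plus strand). Reads were counted over the whole interval, exons and introns. The intervals ran from 10.3 kb for Myadm to 791.3 kb for Lrrtm4, and all 8 were longer than the median gene, 8.30 kb. Entries of the table overlapped 3 of them. B3gnt2 overlapped 5 entries, 2 of them (Gm12057 and RP23-242C19.7) on its own strand, and Ildr2 (with 5330438I03Rik) and Lrrtm4 (with Gm4409) overlapped 1 each on the opposite strand. Whether the counting used strand is not given in the sources used here, so the values of these 3 genes may hold reads of their neighbours.

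The starts of these genes differ in sequence. RefSeq (GRCm38.p6) gave 1 annotated start for Ildr2 and B3gnt2, 2 each for Ndst3, Lrrtm4 and Olfm3, 3 for Trpv2 and 4 each for Myadm and Vrk1. For each gene only the start nearest the 5′ end of the counted interval was used, so other starts may differ. The 250 bases before the start are shown, 5′ to 3′ on the gene's strand, for the 2 genes whose RefSeq start falls at the start of the counted interval and whose higher level in Hdac2 KO was least dependent on the model (Ildr2 and Myadm), and for the 2 genes that were lower in HttQ111/+ mice (B3gnt2 and Vrk1). Capitals mark CG pairs.
Ildr2, chr1:166253889-166254138, plus strand: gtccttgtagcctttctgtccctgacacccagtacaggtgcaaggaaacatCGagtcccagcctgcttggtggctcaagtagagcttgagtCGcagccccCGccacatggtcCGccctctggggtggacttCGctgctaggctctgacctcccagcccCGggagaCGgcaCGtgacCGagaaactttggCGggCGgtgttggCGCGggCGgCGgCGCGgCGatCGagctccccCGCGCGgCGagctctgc
Myadm, chr7:3288788-3289037, plus strand: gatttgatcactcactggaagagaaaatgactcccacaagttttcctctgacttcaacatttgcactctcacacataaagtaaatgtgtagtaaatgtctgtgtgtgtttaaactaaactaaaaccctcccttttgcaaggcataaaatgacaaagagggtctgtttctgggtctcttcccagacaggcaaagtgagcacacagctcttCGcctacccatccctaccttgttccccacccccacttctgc
B3gnt2, chr11:22859736-22859985, minus strand: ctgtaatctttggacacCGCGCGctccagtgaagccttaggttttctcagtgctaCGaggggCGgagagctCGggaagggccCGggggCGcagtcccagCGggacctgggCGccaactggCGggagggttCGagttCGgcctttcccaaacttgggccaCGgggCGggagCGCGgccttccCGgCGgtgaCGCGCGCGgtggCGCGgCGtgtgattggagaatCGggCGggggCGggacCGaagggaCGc
Vrk1, chr12:106010013-106010262, plus strand: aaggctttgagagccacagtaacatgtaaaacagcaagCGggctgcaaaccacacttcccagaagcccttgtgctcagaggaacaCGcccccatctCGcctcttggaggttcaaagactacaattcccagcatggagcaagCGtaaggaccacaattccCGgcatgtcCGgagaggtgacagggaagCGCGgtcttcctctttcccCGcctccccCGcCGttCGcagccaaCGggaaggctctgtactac
The window of B3gnt2 held 31 CG pairs, that of Ildr2 23 and that of Vrk1 13, against a median of 6 over the 32851 RefSeq windows of the same length. The other 5 windows held 1 to 4 (Ndst3 and Myadm 1, Trpv2 2, Lrrtm4 3, Olfm3 4). Both genes that were lower in HttQ111/+ mice with intact Hdac2 thus had more CG pairs than the median window, and so did 1 (Ildr2) of the 6 that were higher. These are few genes chosen on that difference, and a link between CG pairs and direction was not tested. The GC box GGGCGG, read on both strands, occurred 4 times in the window of B3gnt2, 3 times in that of Ildr2, once in that of Olfm3 and in none of the other 5, and 32.7% of all windows held it. No window held the cAMP response element TGACGTCA (1.55% of all windows). The RefSeq start of B3gnt2 used here lies 1226 bases inside the counted interval, and the nearest one for Ndst3 lies 18340 bases inside.

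Counts assigned to genes ranged from 50339179 to 76939791 per library, and the 8 genes had between 169 counts (Ndst3, the lowest library) and 12625 counts (B3gnt2, the highest). Hdac2, which other cells keep and which was counted over its whole interval, had a mean of 102.5 and 104.6 CPM (counts per 1000000 counts of the TMM-scaled library) in the 2 Hdac2 WT groups and of 94.4 and 95.2 CPM in the 2 Hdac2 KO groups. Hdac1 was at 5.33 to 7.76 CPM in Hdac2 WT and at 8.37 to 11.03 CPM in Hdac2 KO libraries, without overlap. The Hdac2 ranges did overlap (95.5 to 111.4 CPM in Hdac2 WT and 89.4 to 101.2 CPM in Hdac2 KO libraries), so that Hdac2 itself does not check the label of each library. MSN markers were abundant throughout (summed level of the 9 measured ones 5716 to 9057 CPM). RNA from neighbouring tissue was present in 5 libraries, with over 100 CPM in summed markers: cortical projection neuron markers in HttQ111/+ Hdac2 WT replicate 7 (433.0 CPM) and in Htt+/+ Hdac2 KO replicates 2 and 6 (131.6 and 167.4 CPM), and choroid plexus markers in Htt+/+ Hdac2 WT replicate 1 (181.3 CPM) and HttQ111/+ Hdac2 KO replicate 1 (116.4 CPM). RNA extraction dates nearly followed the Hdac2 genotype: of 6 dates, only 25 May and 27 May held libraries of both. Dates held both Htt genotypes on 3 days in the Hdac2 WT and on 3 days in the Hdac2 KO mice.

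In Htt+/+ mice, 7 of the 8 genes differed between Hdac2 KO and Hdac2 WT striata in a model with surrogate variables (edgeR, adjusted p under 0.05): Ndst3, Ildr2, Olfm3, Trpv2, Myadm and Lrrtm4 were up-regulated and Vrk1 was down-regulated, whereas B3gnt2 did not pass. The sign for Lrrtm4 turned in 5 of 15 alternative models. Of all 17126 genes tested in this comparison 17.8% passed, 9.06% up and 8.79% down. The comparison shares libraries with the one that chose the genes and is tied to it by arithmetic, as described below. The count of 7 is therefore not independent of the choice. In Hdac2 KO mice, none of the 8 genes differed between HttQ111/+ and Htt+/+ mice at an adjusted p under 0.05, and the largest log2 difference was 0.11. Of all 17110 genes tested in that comparison 0.00584% passed, so that the count for the members is that of nearly all genes. Within the Hdac2 WT groups, all 8 differed by 0.22 to 0.48 on the log2 scale in either direction, which the choice of the genes fixed.

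**Figure D1:**
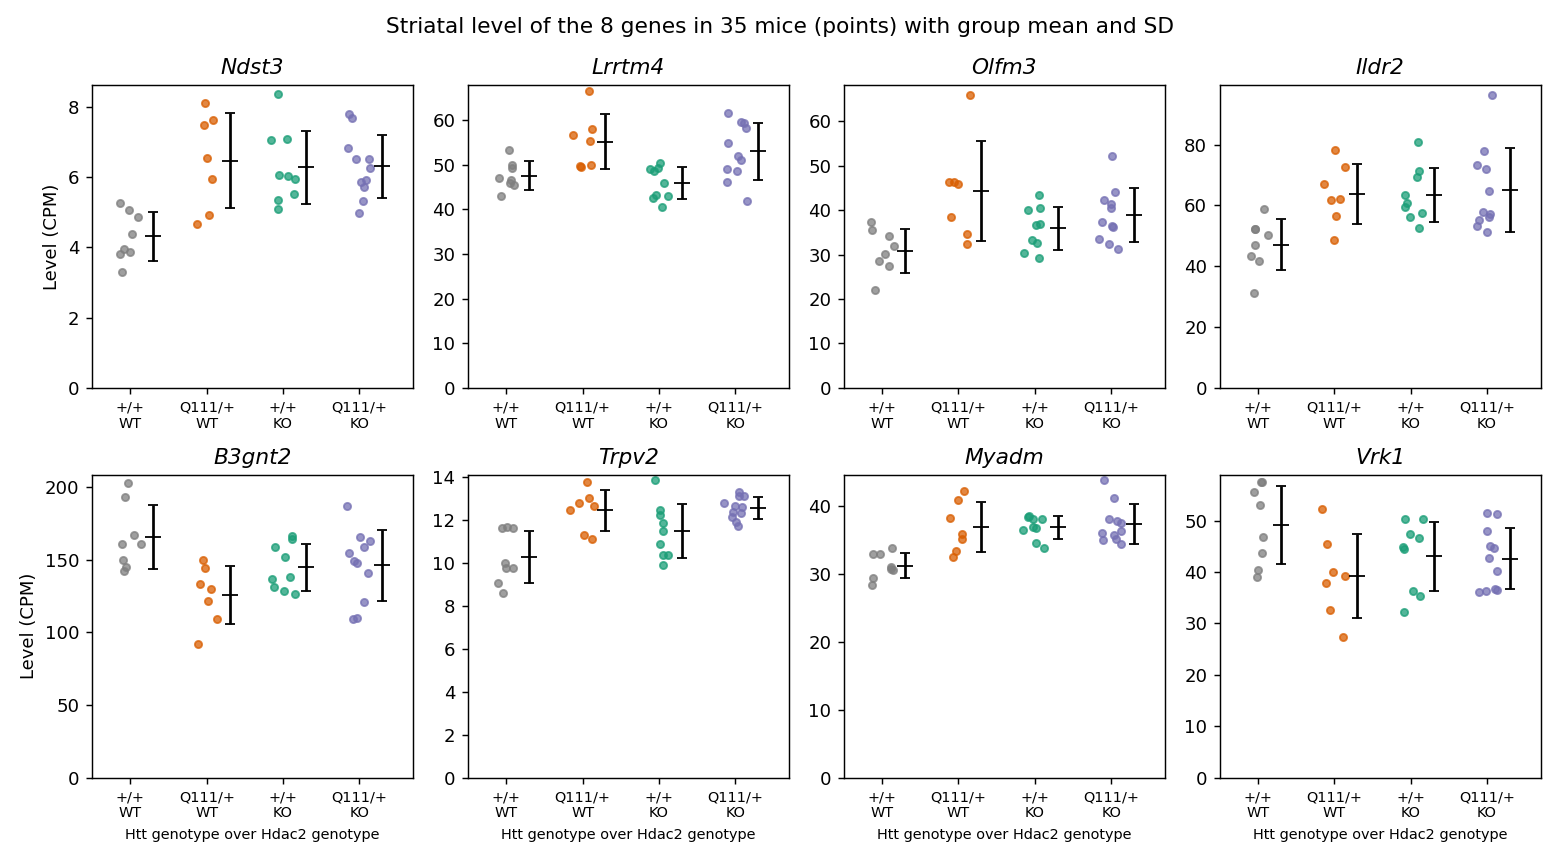
Level in CPM of each of the 8 genes in the striatum of 35 mice, 1 point a mouse, by Htt genotype (+/+ or Q111/+) and Hdac2 genotype (WT or KO); the black bar and whiskers give the group mean and SD (n = 8, 7, 9 and 11 from left to right). The means of the 2 Hdac2 KO groups almost coincide for Ndst3, Ildr2, B3gnt2, Myadm and Vrk1 and lie farthest apart, relative to their level, for Lrrtm4, and no gene has 2 groups without overlap in any of the 4 comparisons.

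Among the genes of heparan sulfate and of the synapse, Ndst3 was the least abundant. Its levels were 3.30 to 5.26 CPM (median 4.16) in Htt+/+ Hdac2 WT, 4.66 to 8.09 CPM (median 6.54) in HttQ111/+ Hdac2 WT, 5.08 to 8.36 CPM (median 6.02) in Htt+/+ Hdac2 KO and 4.97 to 7.80 CPM (median 6.25) in HttQ111/+ Hdac2 KO mice. The Htt+/+ Hdac2 WT group was the lowest, with a mean of 4.31 ± 0.695 CPM (SD, n = 8), and the other 3 means (6.27 ± 1.04 CPM, SD, n = 9, 6.30 ± 0.894 CPM, SD, n = 11 and 6.46 ± 1.35 CPM, SD, n = 7) differed by less than their SD. With Hdac2 KO in Htt+/+ mice Ndst3 rose on the log2 scale by 0.54 (standard error 0.11, edgeR adjusted p = 0.000571). HttQ111/+ differed from Htt+/+ with Hdac2 KO by 0.047 (95% interval −0.11 to 0.21).

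Lrrtm4 followed another order. Its levels were 42.9 to 53.4 CPM (median 46.8) in Htt+/+ Hdac2 WT, 49.5 to 66.6 CPM (median 55.3) in HttQ111/+ Hdac2 WT, 40.5 to 50.3 CPM (median 45.9) in Htt+/+ Hdac2 KO and 41.9 to 61.7 CPM (median 52.0) in HttQ111/+ Hdac2 KO mice. Both HttQ111/+ groups, at 55.1 ± 6.18 CPM (SD, n = 7) and 53.0 ± 6.32 CPM (SD, n = 11), had higher means than both Htt+/+ groups, at 47.5 ± 3.22 CPM (SD, n = 8) and 45.8 ± 3.58 CPM (SD, n = 9), and the 2 groups of the same Htt genotype differed by less than their SD. The mean of HttQ111/+ Hdac2 KO mice was 115.6% of that of Htt+/+ Hdac2 KO mice, and it was higher on each of the 3 extraction dates shared by these groups, by 0.061 to 0.23 in log2 CPM. Of these dates, 3 June held only 1 Htt+/+ Hdac2 KO library, against 5 HttQ111/+ Hdac2 KO libraries. In the model the difference was 0.089 (95% interval 0.017 to 0.16), with p = 0.0165 and an adjusted p of 0.533, which does not pass. For Hdac2 KO against Hdac2 WT in Htt+/+ mice the model gave 0.20 (standard error 0.046, edgeR adjusted p = 0.00215), while the mean level was 96.4% of that of Htt+/+ Hdac2 WT mice. The sign thus depended on the model, and without surrogate variables the log2 fold change was −0.056.

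Olfm3 was the most variable of the 8 in HttQ111/+ Hdac2 WT mice (coefficient of variation 25.2%). Its levels were 22.0 to 37.2 CPM (median 31.1) in Htt+/+ Hdac2 WT, 32.4 to 65.9 CPM (median 45.9) in HttQ111/+ Hdac2 WT, 29.2 to 43.3 CPM (median 36.7) in Htt+/+ Hdac2 KO and 31.2 to 52.2 CPM (median 37.4) in HttQ111/+ Hdac2 KO mice. From low to high, the means were those of Htt+/+ Hdac2 WT (30.9 ± 4.94 CPM, SD, n = 8), Htt+/+ Hdac2 KO (35.9 ± 4.85 CPM, SD, n = 9), HttQ111/+ Hdac2 KO (38.9 ± 6.09 CPM, SD, n = 11) and HttQ111/+ Hdac2 WT (44.3 ± 11.2 CPM, SD, n = 7), and each mean differed from the next by little more than the SD of the lower group or less. The highest library, at 65.9 CPM, was HttQ111/+ Hdac2 WT replicate 7, the one with the most cortical marker RNA. With Hdac2 KO in Htt+/+ mice Olfm3 rose by 0.32 (standard error 0.072, edgeR adjusted p = 0.00160) on the log2 scale in the model with surrogate variables. Without the 5 libraries that held RNA of neighbouring tissue the value was 0.25. Between the Htt genotypes with Hdac2 KO the difference was 0.056 (95% interval −0.052 to 0.16).

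Among the membrane proteins, Ildr2 had the smallest p-value of the 8 with Hdac2 KO. Its levels were 31.1 to 58.8 CPM (median 48.5) in Htt+/+ Hdac2 WT, 48.6 to 78.1 CPM (median 62.2) in HttQ111/+ Hdac2 WT, 52.6 to 80.9 CPM (median 60.9) in Htt+/+ Hdac2 KO and 51.1 to 96.4 CPM (median 57.9) in HttQ111/+ Hdac2 KO mice. As with Ndst3, the Htt+/+ Hdac2 WT mean (47.1 ± 8.45 CPM, SD, n = 8) stood below the other 3, the highest of which was 65.0 ± 13.7 CPM (SD, n = 11) and the lowest 63.5 ± 8.90 CPM (SD, n = 9), within their SD of each other. With Hdac2 KO in Htt+/+ mice Ildr2 rose by 0.54 (standard error 0.061, edgeR adjusted p = 1.18e-07). Between the Htt genotypes with Hdac2 KO the difference was 0.027 (95% interval −0.065 to 0.12). In HttQ111/+ mice, the model with surrogate variables placed Ildr2 higher with Hdac2 KO by 0.22 (95% interval 0.12 to 0.33), an interval that excludes 0 and goes against the description of the gene as indifferent to Hdac2 in carriers, and without surrogate variables the value was 0.023.

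Myadm varied least within the Htt+/+ groups. Its levels were 28.4 to 33.9 CPM (median 30.9) in Htt+/+ Hdac2 WT, 32.6 to 42.3 CPM (median 36.0) in HttQ111/+ Hdac2 WT, 33.9 to 38.6 CPM (median 36.9) in Htt+/+ Hdac2 KO and 34.5 to 43.9 CPM (median 36.3) in HttQ111/+ Hdac2 KO mice. The highest Htt+/+ Hdac2 WT library and the lowest Htt+/+ Hdac2 KO library almost coincided, and the means were 31.3 ± 1.88 CPM (SD, n = 8) and 36.9 ± 1.70 CPM (SD, n = 9). Myadm rose with Hdac2 KO in Htt+/+ mice by 0.26 (standard error 0.051, edgeR adjusted p = 0.000380), and the 3 groups other than Htt+/+ Hdac2 WT had means within 1 SD of each other, at 118.0% to 119.6% of its mean. Between the Htt genotypes with Hdac2 KO the difference was 0.045 (95% interval −0.033 to 0.12).

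Trpv2 was less abundant. Its levels were 8.60 to 11.6 CPM (median 9.88) in Htt+/+ Hdac2 WT, 11.1 to 13.7 CPM (median 12.6) in HttQ111/+ Hdac2 WT, 9.90 to 13.8 CPM (median 11.5) in Htt+/+ Hdac2 KO and 11.7 to 13.3 CPM (median 12.6) in HttQ111/+ Hdac2 KO mice. The Htt+/+ Hdac2 KO mean (11.5 ± 1.26 CPM, SD, n = 9) was thus between that of Htt+/+ Hdac2 WT (10.3 ± 1.22 CPM, SD, n = 8) and those of the 2 HttQ111/+ groups (12.4 ± 0.941 CPM, SD, n = 7 and 12.5 ± 0.516 CPM, SD, n = 11), and neighbouring means differed by about the SD of the Htt+/+ groups or less. Trpv2 rose with Hdac2 KO in Htt+/+ mice by 0.29 (standard error 0.080, edgeR adjusted p = 0.0103) in the model with surrogate variables, and gave 0.16 without them, which did not pass. In Hdac2 KO mice the difference between the Htt genotypes was 0.11 (95% interval −0.0048 to 0.23), with p = 0.0594.

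The other 2 genes were lower in HttQ111/+ mice with intact Hdac2. B3gnt2, the most abundant of the 8, was at 142 to 203 CPM (median 161) in Htt+/+ Hdac2 WT, 92.0 to 150.1 CPM (median 129.8) in HttQ111/+ Hdac2 WT, 126 to 166 CPM (median 138) in Htt+/+ Hdac2 KO and 109 to 187 CPM (median 149) in HttQ111/+ Hdac2 KO mice. The 2 Hdac2 KO means (145 ± 15.9 CPM, SD, n = 9 and 146 ± 24.4 CPM, SD, n = 11) lay between the 2 Hdac2 WT means (165 ± 22.1 CPM, SD, n = 8 in Htt+/+ and 126 ± 20.2 CPM, SD, n = 7 in HttQ111/+), about 1 SD from each. With Hdac2 KO in Htt+/+ mice the log2 fold change of B3gnt2 was −0.099 (95% interval −0.21 to 0.016), with an edgeR adjusted p of 0.256, which does not pass. It passed in 2 of 15 alternatives, with ID series as the covariate (−0.26, edgeR adjusted p = 0.00287) and with only these 2 groups in the fit (−0.21, edgeR adjusted p = 0.00145). In Hdac2 KO mice the difference between the Htt genotypes was −0.041 (95% interval −0.13 to 0.045).

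Vrk1 was at 39.0 to 57.4 CPM (median 49.9) in Htt+/+ Hdac2 WT, 27.3 to 52.3 CPM (median 39.2) in HttQ111/+ Hdac2 WT, 32.2 to 50.3 CPM (median 44.8) in Htt+/+ Hdac2 KO and 36.1 to 51.4 CPM (median 42.6) in HttQ111/+ Hdac2 KO mice. As for B3gnt2, the 2 Hdac2 KO means lay between the Hdac2 WT means, from 49.2 ± 7.64 CPM (SD, n = 8) in Htt+/+ Hdac2 WT through 43.0 ± 6.74 CPM (SD, n = 9) and 42.6 ± 5.94 CPM (SD, n = 11) in the Hdac2 KO groups to 39.3 ± 8.13 CPM (SD, n = 7) in HttQ111/+ Hdac2 WT, with neighbouring means within 1 SD. Vrk1 fell with Hdac2 KO in Htt+/+ mice, with a log2 fold change at −0.29 (standard error 0.10, edgeR adjusted p = 0.0497), just past the threshold, and gave −0.19 without surrogate variables, which did not pass. In Hdac2 KO mice the difference between the Htt genotypes was −0.094 (95% interval −0.26 to 0.067).

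Between genes, levels can be compared only per length. Per kilobase of annotated exon (GENCODE vM21, exons within the counted interval), the mean level in Htt+/+ Hdac2 WT striata was 49.4 CPM per kb for B3gnt2, 9.69 for Vrk1, 9.24 for Myadm, 7.74 for Lrrtm4, 6.90 for Olfm3, 5.71 for Ildr2, 2.40 for Trpv2 and 0.44 for Ndst3. Since introns were counted too, this scale overstates genes with long introns.

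Whether Hdac2 loss altered the Htt+/+ level of these genes was the comparison of 9 Htt+/+ Hdac2 KO with 8 Htt+/+ Hdac2 WT striata. Regardless of sign, the median log2 fold change was 0.29, against 0.095 over all 17126 genes, and the CPM ranges of the 2 groups overlapped for all 8 (they did not for 4.64% of all genes). The ranges also overlapped for all 8 in HttQ111/+ mice by Hdac2 genotype and by Htt genotype with intact or deleted Hdac2, where 1.42%, 0.138% and 0% of all genes did not overlap. The same 8 Htt+/+ Hdac2 WT libraries were the reference in the comparison of HttQ111/+ with Htt+/+ that chose the genes, so that this result is not independent of the choice. The Hdac2 difference in Htt+/+ mice is nearly the HttQ111 difference with intact Hdac2 plus the Hdac2 difference in carriers. From that sum, the HttQ111 difference with Hdac2 KO is subtracted. The choice set the 2 added values, so the change in Htt+/+ mice and the small HttQ111 difference with Hdac2 KO are not separate results. Ndst3, Ildr2 and Myadm passed in 14 of 15 alternative models, failing only when extraction date replaced the surrogate variables; only 2 dates in that model held both Hdac2 genotypes. The log2 fold changes with the date were 0.40, 0.31 and 0.11. Within 27 May, the only date with both of these groups (3 Hdac2 WT libraries of the V series and 1 Hdac2 KO library of the Z series), Ndst3, Ildr2 and Myadm were higher in the Hdac2 KO library, by 0.32, 0.20 and 0.13 in log2 CPM, and the other 5 were lower. Within each of the 3 ID series, Ndst3, Ildr2, Myadm, Olfm3 and Trpv2 were higher and B3gnt2 was lower with Hdac2 KO. The A series held 1 Hdac2 KO library and the Z series 1 Hdac2 WT library, so each of these 2 series rested on a single library on 1 side. The calls for Olfm3 and Trpv2 held in 9 of the 15 alternatives and those for Lrrtm4 and Vrk1 in 6, and without surrogate variables 3 of the 8 genes passed. Lrrtm4 was lower with Hdac2 KO in either sex (differences of −0.091 and −0.029 in log2 CPM), against the sign of its call. Hdac2 genotype and extraction date cannot be told apart in this comparison.

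Of the 9 MSN markers 2 rose and 2 fell, with summed levels of 7885 to 9057 CPM in Htt+/+ Hdac2 WT and 7452 to 8786 CPM in Htt+/+ Hdac2 KO mice. None of the markers of interneurons (4), astrocytes (5), oligodendrocytes (5), microglia (5), endothelial cells (5) or mural cells (4) passed in edgeR, with an unadjusted p under 0.05 for 2 astrocyte markers, 1 endothelial marker and none of the others. The 5 cortical markers had log2 fold changes of −0.82 to −0.56, none of which passed (2 at an unadjusted p under 0.05), and ranged from 10.2 to 61.8 CPM in sum in Htt+/+ Hdac2 WT and from 3.56 to 167.4 CPM in Htt+/+ Hdac2 KO mice. Of the 2 choroid plexus markers tested 1 fell, with log2 fold changes of −3.12 and −0.30, and the median summed level of the 3 measured was 21.4 CPM in Htt+/+ Hdac2 WT (range 1.43 to 181.3) and 4.69 CPM in Htt+/+ Hdac2 KO mice (2.98 to 18.7). Without the 5 libraries named above, a setting chosen after the marker sums were seen, 7 of the 8 genes again passed, and they were the same 7. In bulk tissue, a change in the share of a cell type and a change in the RNA of each cell cannot be told apart. From counts of DARPP-32-positive cells in sections, the study reported no significant MSN loss with Hdac2 KO.

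**Figure D2:**
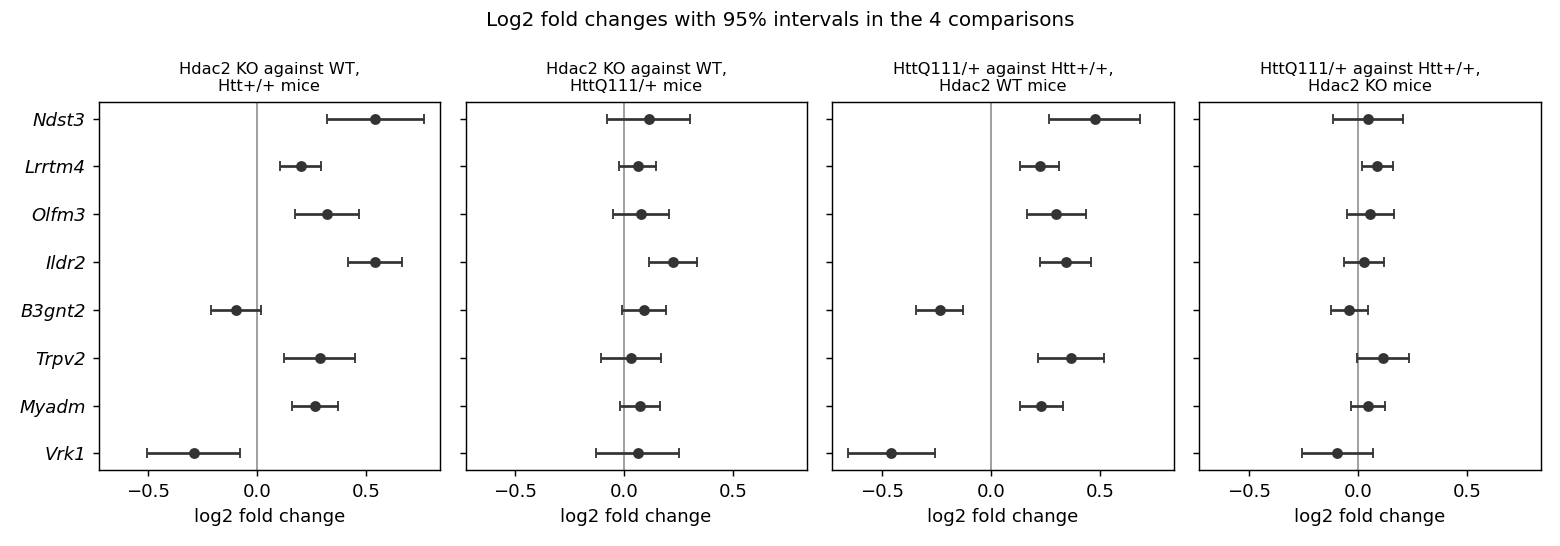
Log2 fold change of the 8 genes (points) with its 95% interval (whiskers) in 4 comparisons, from models with surrogate variables. In Htt+/+ mice 7 of the 8 intervals for Hdac2 KO exclude 0, and in Hdac2 KO mice only that of Lrrtm4 excludes 0 for HttQ111/+. The 2 middle panels show comparisons that the choice of the genes used, and the left panel shares its Htt+/+ Hdac2 WT libraries with that choice.

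With Hdac2 intact, the difference between HttQ111/+ and Htt+/+ mice was 0.48 for Ndst3, 0.37 for Trpv2, 0.34 for Ildr2, 0.30 for Olfm3, 0.23 for Myadm and 0.22 for Lrrtm4 on the log2 scale. It was −0.24 for B3gnt2 and −0.46 for Vrk1. These values chose the genes and are not a result (of all 17133 genes, 10.9% had a 95% interval that excluded 0, and all 8 members did). The median absolute value over all genes was 0.058. In these groups the direction was the same on each of the 3 extraction dates, in each ID series and in each sex for all 8 genes. These are parts of the libraries that chose the genes, so the sameness is no support for the differences. The Z series held only 1 Htt+/+ and 2 HttQ111/+ mice. The summed level of the MSN markers was 5716 to 7800 CPM in HttQ111/+ and 7885 to 9057 CPM in Htt+/+ mice with intact Hdac2, and its part in these differences was not tested. Of the 9 markers, 5 passed as lower in edgeR. Ppp1r1b, Penk, Pde10a and Rgs9 among the markers are in the study's own list of genes changed by HttQ111. The sum is therefore not a measure of the share of MSNs alone.

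The same contrast was made in Hdac2 KO mice, 11 HttQ111/+ and 9 Htt+/+. The 11 HttQ111/+ Hdac2 KO libraries also entered the comparison by Hdac2 genotype in carriers, which was part of the choice, so that this contrast is not fully independent of it. Given the choice, small values here and the change with Hdac2 KO in Htt+/+ mice largely restate each other. None of the 8 genes passed an adjusted p of 0.05 in the model with surrogate variables or in any of 15 alternatives, DESeq2 and limma-voom among them, and the median absolute log2 fold change was 0.052, against 0.040 over all genes. Only Lrrtm4 had an unadjusted p under 0.05, and 7.52% of all genes did. The log2 fold changes were positive for 6 genes and negative for B3gnt2 and Vrk1, and for Ndst3, Ildr2 and B3gnt2 the sign turned in 1, 1 and 3 of the alternatives. The adjusted p of Lrrtm4, 0.533 here, was 0.0732 to 0.859 over the alternatives. The upper ends of the intervals for the 6 genes with positive values were 0.12 to 0.23. For B3gnt2 and Vrk1 the lower ends were −0.13 and −0.26. MSN markers summed to 6433 to 8160 CPM in HttQ111/+ and 7452 to 8786 CPM in Htt+/+ mice with Hdac2 KO, and none of the 9 passed in edgeR, 7 having an unadjusted p under 0.05.

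The difference between the 2 contrasts (HttQ111/+ against Htt+/+ with Hdac2 KO minus the same with Hdac2 WT) was −0.43 (95% interval −0.69 to −0.17) for Ndst3, −0.32 (95% interval −0.46 to −0.17) for Ildr2, −0.25 (95% interval −0.42 to −0.079) for Olfm3 and −0.25 (95% interval −0.44 to −0.058) for Trpv2. It was −0.18 (95% interval −0.31 to −0.061) for Myadm and −0.14 (95% interval −0.25 to −0.022) for Lrrtm4. For the 2 genes with lower levels it was 0.19 (95% interval 0.060 to 0.33) for B3gnt2 and 0.36 (95% interval 0.11 to 0.61) for Vrk1. These values are a description only: they contain the contrast that chose the genes for a large value, so that a shift toward 0 with Hdac2 KO is in part fixed by the choice, and nothing is read from how many of the 8 intervals exclude 0 (5.63% of all genes had an unadjusted p under 0.05). Without surrogate variables the value for Lrrtm4 was −0.0042.

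In HttQ111/+ mice, the log2 fold change for Hdac2 KO against Hdac2 WT was 0.031 to 0.22, positive for all 8 genes. Only the interval for Ildr2 excluded 0 (28.1% of all genes had such an interval), and the choice of genes without a change in carriers fixed this for the other 7. These values shifted with the model: without surrogate variables they ran from −0.19 for Olfm3 to 0.21 for B3gnt2. The intervals of the other 7 reached from −0.13 to 0.30, so that changes of up to that size are not excluded.

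**Figure D3:**
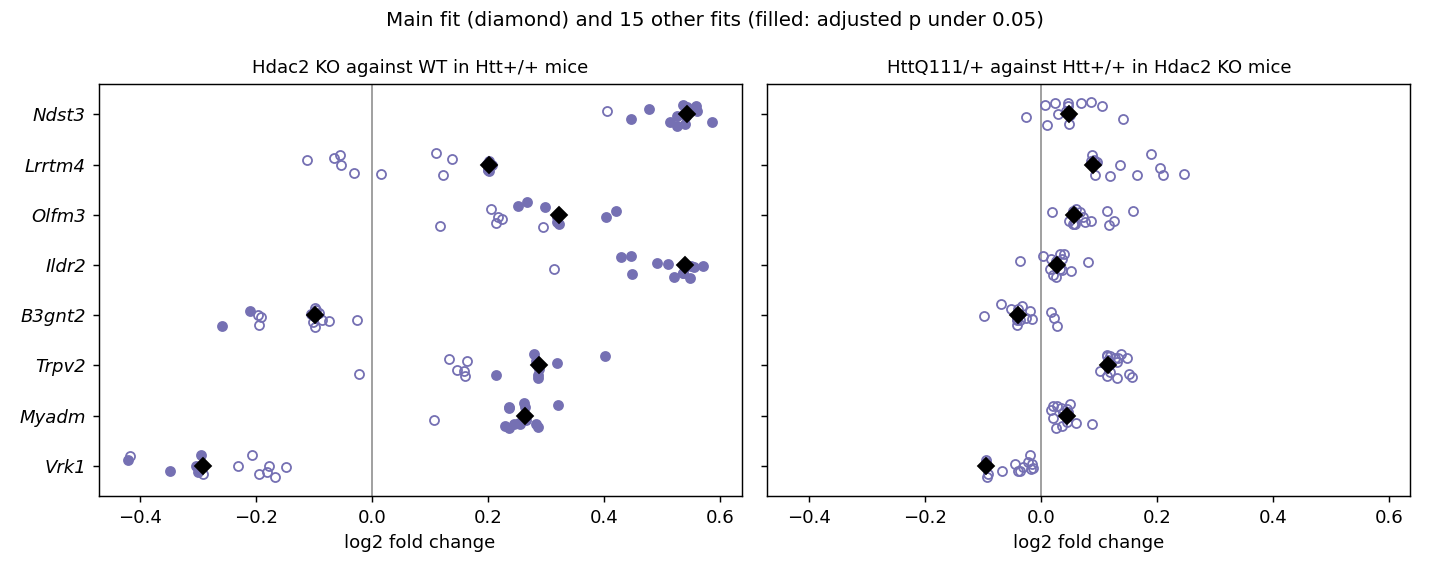
Log2 fold change of the 8 genes in the main model (black diamonds) and in 15 alternative models (circles, filled where the adjusted p was under 0.05) for Hdac2 KO against WT in Htt+/+ mice (left) and HttQ111/+ against Htt+/+ in Hdac2 KO mice (right). Ndst3, Ildr2 and Myadm stay above 0 on the left, Lrrtm4 lies on both sides of 0, and on the right no circle is filled.

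Levels also differed between the ID series of the mice. In HttQ111/+ mice, V series mice (CAG 131 to 144) had more Ildr2 (log2 difference 0.37, standard error 0.079, edgeR adjusted p = 0.00406), Ndst3 (0.30, standard error 0.091, edgeR adjusted p = 0.0412) and Lrrtm4 (0.24, standard error 0.057, edgeR adjusted p = 0.00821) and less B3gnt2 (−0.39, standard error 0.065, edgeR adjusted p = 0.000309) than A and Z series mice (CAG 110 to 118). Thus 4 of the 8 genes passed, against 7.36% of all genes. In Htt+/+ mice, which have no expanded repeat, Ildr2 (0.38, standard error 0.082, edgeR adjusted p = 0.00971), Ndst3 (0.38, standard error 0.096, edgeR adjusted p = 0.0280) and B3gnt2 (−0.31, standard error 0.067, edgeR adjusted p = 0.00971) differed between the same series in the same direction, 3 of 8 against 2.35% of all genes. In the HttQ111/+ Hdac2 WT group, for example, all 3 V series mice (91.97 to 121.7 CPM) were below all 4 A and Z series mice (129.8 to 150.1 CPM) for B3gnt2, and the same held in Htt+/+ Hdac2 WT mice (142.4 to 161.1 against 167.3 to 203.1 CPM).

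Repeat length and ID series cannot be told apart within HttQ111/+ mice, and the test that bears on repeat length is the series difference in HttQ111/+ mice minus that in Htt+/+ mice. None of the 8 genes passed it, here or in 7 alternatives, while 0.121% of all 17346 genes did. The value for Lrrtm4 was 0.19 (95% interval 0.026 to 0.35) on the log2 scale, with p = 0.0247 and an edgeR adjusted p of 0.556, and 7.8% of all genes had an unadjusted p under 0.05. Its V series HttQ111/+ mice had medians of 57.98 CPM with Hdac2 WT and 59.4 CPM with Hdac2 KO, against 49.8 and 50.1 CPM in the A and Z series. For the other 7 the values ran from −0.13 (Vrk1) to 0.093 (Trpv2), and their intervals reached from −0.45 to 0.35.

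**Figure D4:**
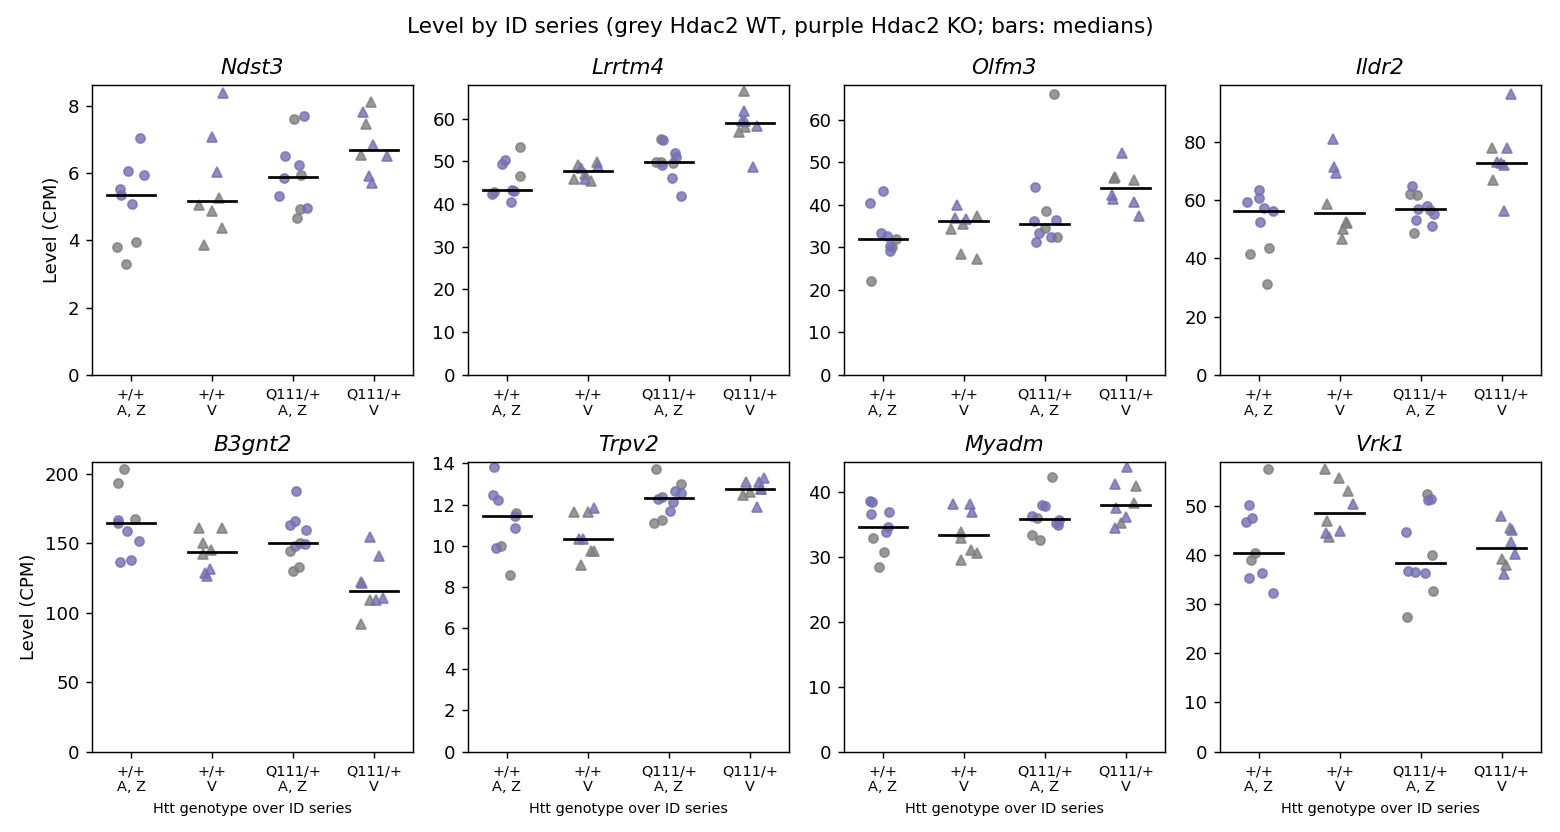
Level (CPM) of the 8 genes by Htt genotype and ID series of the mouse (A and Z as circles, V as triangles), grey for Hdac2 WT and purple for Hdac2 KO, with medians as bars. Ildr2 and B3gnt2 differ between the series with either Htt genotype once Hdac2 genotype is taken into account, and Lrrtm4 is highest in V series HttQ111/+ mice.

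Between the sexes none of the 8 genes passed, in this fit or in 6 alternatives, and 0.0749% of all genes did. The log2 difference of Ndst3, male minus female, was −0.21 (95% interval −0.34 to −0.071), with p = 0.00405 and an edgeR adjusted p of 0.644, and 5.72% of all genes had an unadjusted p under 0.05. For the other 7 genes the values were between −0.060 and 0.10.

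Over the 35 libraries, several of the 8 genes varied together. These correlations are descriptions, since the libraries share groups, ID series and extraction dates. After group means were subtracted, Pearson's r of log2 CPM was −0.74 between Ildr2 and B3gnt2, 0.67 between Ildr2 and Olfm3, −0.64 between Ndst3 and B3gnt2, 0.63 between Ndst3 and Olfm3 and 0.61 between Ndst3 and Ildr2. Pooled over the groups, with ID series left in, Ndst3, Olfm3 and Ildr2 thus varied together. B3gnt2 varied in the opposite direction to Ndst3 and Ildr2, and less so to Olfm3 (r = −0.37). Myadm had r = 0.43 with Ildr2 and −0.43 with B3gnt2, whereas Vrk1 had r between −0.29 and 0.068 with each of the other 7. The genes most like each member over all 35 libraries were P4ha1 (r = 0.90) and Spata2l (0.84) for B3gnt2, Pak1 (0.86) and Gnb4 (0.84) for Olfm3, and Scaper (0.84) and Cdkl2 (0.81) for Lrrtm4. They were Dsg2 (0.83) and Vps36 (0.82) for Ildr2, Gprin1 (0.82) and Sprn (0.81) for Ndst3, and 4933404O12Rik (0.80) and Pcyt1b (0.77) for Myadm. Trpv2 and Vrk1 had less similar partners, Tmsb15b2 (0.68) and Ube2z (0.67) for Trpv2 and Id4 (0.66) and Fam76a (0.63) for Vrk1. With group means subtracted these values were 0.53 to 0.87.

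The other members of the families and pathways of the 8 genes were examined for Hdac2 KO in Htt+/+ mice, where 9.06% of all genes rose and 8.79% fell. Of 23 paralogs tested, 2 rose and 2 fell. Olfm2, a paralog of Olfm3, rose by 0.65 (standard error 0.064, edgeR adjusted p = 8.39e-09) and B3gnt7 by 0.79 (0.23, 0.0168), while Lrrtm1 fell by 0.28 (0.068, 0.00355) and Lrrtm3 fell by 0.18 (0.045, 0.00506). Of 21 genes of heparan sulfate synthesis, Hs3st4, a 3-O-sulfotransferase (0.25, standard error 0.061, adjusted p = 0.00408), and Extl1 (0.22, 0.053, 0.00269) rose, and Glce, the epimerase (−0.24, 0.046, 0.000333), fell. Their median log2 fold change was −0.0093, against −0.0014 over all genes. Of 13 binding partners of Lrrtm4, the glypican Gpc6 rose by 0.40 (0.10, 0.00435) and the neurexin Nrxn3 fell by 0.18 (0.041, 0.00169). Of 18 genes of AMPA receptor complexes, more fell (7) than rose (2). The 4 with the smallest p were Olfm2, named above, and Gsg1l (−0.54, 0.065, 3.79e-07), Gria3 (−0.21, 0.034, 3.64e-05) and Shisa9 (−0.28, 0.050, 0.000159), and the median was −0.026. For HttQ111/+ against Htt+/+ with Hdac2 KO, none of the genes of these 4 lists passed in edgeR, and 1, 2, 1 and 2 of them had an unadjusted p under 0.05.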

How the data were processed

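Striatal RNA of 35 mice was measured by strand-specific mRNA sequencing. The authors aligned reads with GSNAP (2015-06-23) to GRCm38, counted uniquely aligned reads over whole gene intervals with BEDTools and deposited these raw counts per gene. Libraries held 50339179 to 76939791 gene counts, so counting error is small for the members (at least 169 counts).

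ERCC spike-ins (92), genes of up to 250 nt (6152) and 2 mitochondrial rRNA genes were left out. Groups followed the labels. Genes reaching 6 counts in each library of either compared group were tested with edgeR 4.0.16 (quasi-likelihood, TMM scaling, R 4.3.3) in a fit of all 4 groups with 9 surrogate variables from sva 3.50.0, with Benjamini-Hochberg adjustment over all genes and a threshold of 0.05. The scripts were tested on simulated data. Levels are TMM-scaled CPM. Alternatives used DESeq2 1.42.0, limma 3.58.1 and other covariates, filters and libraries. The named genes were all 8 members, the 2 genes most like each, and up to 4 called genes of each list with the smallest p. Members and lists were chosen with earlier results of these data known. Each replicate is 1 mouse.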

Additional observations from a re-analysis of the deposited data

Results flagged for a closer look

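Of 24 sets of values in which 1 library could stand apart (8 genes in the 3 groups of up to 10 mice), 1 did, and chance alone flags about 1 in 20. Olfm3 in HttQ111/+ Hdac2 WT replicate 7 was at 65.9 CPM, whereas the other 6 mice of the group were at 32.4 to 46.4 CPM. The same library had the highest summed level of cortical projection neuron markers, 433.0 CPM, and the part of that RNA in the Olfm3 value was not tested. Without the 5 libraries that held RNA of neighbouring tissue, the log2 difference of Olfm3 between HttQ111/+ and Htt+/+ mice with intact Hdac2 was 0.22, against 0.30 with them.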

How the results depend on the processing

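Of the 8 genes, the 7 that passed for Hdac2 KO in Htt+/+ mice became 3 without surrogate variables, 3 with sex, 4 with ID series, 3 with a replicate block and 0 with extraction date in their place. For Lrrtm4 the sign reversed in these fits, except with ID series, to −0.056 (none), −0.054 (sex), −0.066 (replicate block) and −0.11 (date). It also reversed to −0.032 with only the 2 groups compared, where surrogate variables were estimated anew. Trpv2 reversed to −0.024 with the date. The count was 5 to 7 in the other 10 alternatives. The cause was not tested. In HttQ111/+ mice the number of genes whose interval for Hdac2 KO excluded 0, 1 in the main fit, was 0 with a replicate block, 0 with only the 2 groups compared, 2 in males only, 2 at a minimum of 20 counts and 4 without a filter, and Ildr2 reversed to −0.0050 with sex and −0.12 with the date. For the difference between the Htt contrasts, 5 of 8 intervals excluded 0 without surrogate variables and 6 without the 5 libraries with RNA of neighbouring tissue, both settings chosen after seeing the data. The HttQ111/+ contrast in Hdac2 KO mice gave 0 of 8 in all 15 alternatives. For the same contrast with intact Hdac2 all 8 intervals excluded 0, the replicate block included, which the choice of the genes fixed and which shows no robustness. Over all genes the calls ranged from 822 to 5094 (3056 in the main fit) for Hdac2 KO in Htt+/+, 331 to 3462 (2841) in HttQ111/+, 0 to 905 (69) for HttQ111/+ with intact Hdac2, 0 to 45 (1) with Hdac2 KO, 0 to 54 (21) for the series difference and 9 to 19 (13) for sex. Mice with the same replicate number deviated together little more than other mice. The median correlation was 0.039 over 45 pairs, 15 of them over 0.1, against −0.0099 over 410 pairs of other numbers, 105 of them over 0.1. The numbers were not taken as pairs.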

Other observations

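The study named 22 further genes that differed by HttQ111 with intact Hdac2, chosen on these same samples, so their counts are no independent evidence. Ildr2, unlike the other members, is not in the study's list of genes changed in common with an earlier study. Of the 7 of these 22 without a change by Hdac2 KO in carriers, none passed in edgeR for Hdac2 KO in Htt+/+ mice, and 2 had an unadjusted p under 0.05. The 7 of 8 found for the members was thus not seen in these other genes. Members and lists were divided with earlier results of these data known, so nothing is read from this difference. Of the 15 with such a change, 8 rose and 6 fell in Htt+/+ mice: the synaptic vesicle protein gene Syp rose by 0.53 on the log2 scale (standard error 0.036, edgeR adjusted p = 8.60e-12), and the receptor-type phosphatase gene Ptprv fell by 1.44 (0.091, 4.13e-12).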
